A study of Mus musculus with 11 samples.

Results

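The 9 genes described here belong to the feedback and target set of fibroblast growth factor (FGF) signalling: *Spry1*, *Spry2*, *Spry4*, *Dusp6*, *Etv4*, *Etv5*, *Il17rd*, *Spred1* and *Spred2*. They were taken by symbol, and all 9 were found among the 18667 genes that the tables of all 4 ages share. The samples were 11 single-cell libraries from the floor of the cochlear duct of wildtype CD1 mice, 2 at embryonic day 14 (E14), 3 at E16, 4 at postnatal day 1 (P1) and 2 at P7, the last numbered 4 and 5. No drug was given and no library carried a mutant allele. Each library pooled cochleae from several animals, so every error is a spread between libraries and not between animals. Each age was its own set of collections in its own table, so age and collection cannot be told apart.

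FGFs bind receptor tyrosine kinases and switch on the RAS-ERK cascade, and cells that receive the signal transcribe both its effectors and its brakes. *Etv4* and *Etv5* encode ETS transcription factors of the PEA3 group. *Dusp6* encodes a phosphatase that inactivates ERK, the Sprouty genes *Spry1*, *Spry2* and *Spry4* and the Sprouty-related *Spred1* and *Spred2* encode inhibitors of the route from receptor to ERK, and *Il17rd* (also called *Sef*) encodes a membrane protein that dampens FGF signals. In the cochlea, *Fgf20* is known from the prosensory domain that yields hair cells (HCs) and supporting cells, *Fgf8* from inner HCs, and *Fgfr3* from the lateral cells that become inner pillar cells (IPCs), Deiters' cells (DCs) and outer HCs.

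Promoters are shown for 3 members on which the results turn, since PEA3 factors are known to bind sites with a GGAA core. RefSeq promoters on GRCm38.p6, each 250 bases before to 50 bases after a transcript start, were matched for 7 of the 9 members, 8 promoters in all. Capitals mark GGAA, or TTCC for a site on the other strand. The windows are chr16:22439521-22439820 (minus strand) and chr16:22438319-22438618 (minus strand) for the upstream and downstream *Etv5* starts, chr10:99262981-99263280 (plus strand) for *Dusp6* and chr3:37639697-37639996 (plus strand) for *Spry1*.
*Etv5*, upstream start: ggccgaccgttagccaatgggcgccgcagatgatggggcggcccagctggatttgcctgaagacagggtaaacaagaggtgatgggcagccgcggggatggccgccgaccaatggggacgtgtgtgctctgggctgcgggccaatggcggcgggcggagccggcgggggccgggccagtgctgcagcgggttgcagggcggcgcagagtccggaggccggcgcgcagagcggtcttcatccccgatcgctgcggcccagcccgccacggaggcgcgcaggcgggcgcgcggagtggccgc
*Etv5*, downstream start: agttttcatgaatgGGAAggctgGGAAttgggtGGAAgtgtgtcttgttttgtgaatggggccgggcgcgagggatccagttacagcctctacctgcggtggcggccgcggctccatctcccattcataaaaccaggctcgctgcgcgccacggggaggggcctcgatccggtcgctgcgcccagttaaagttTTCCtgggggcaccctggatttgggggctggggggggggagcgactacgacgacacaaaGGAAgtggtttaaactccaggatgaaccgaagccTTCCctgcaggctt
*Dusp6*: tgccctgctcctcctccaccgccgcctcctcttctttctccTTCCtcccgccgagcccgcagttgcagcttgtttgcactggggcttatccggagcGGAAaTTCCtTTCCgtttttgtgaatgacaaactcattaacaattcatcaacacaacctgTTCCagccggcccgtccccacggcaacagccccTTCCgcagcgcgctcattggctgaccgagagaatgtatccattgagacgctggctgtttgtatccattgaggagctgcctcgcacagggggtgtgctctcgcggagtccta
*Spry1*: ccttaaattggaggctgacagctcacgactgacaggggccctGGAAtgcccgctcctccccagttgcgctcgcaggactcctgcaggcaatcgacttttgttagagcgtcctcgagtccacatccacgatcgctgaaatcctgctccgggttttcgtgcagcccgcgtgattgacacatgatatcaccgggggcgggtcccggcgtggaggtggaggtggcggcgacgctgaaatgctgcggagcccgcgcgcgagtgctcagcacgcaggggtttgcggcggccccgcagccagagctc
The upstream *Etv5* window held 0 such sites and the downstream one 6. The *Dusp6* window held 6 and the *Spry1* window 1. The windows not shown held 5 sites for *Spry2*, 4 for *Il17rd*, 5 for *Spred1* and 7 for *Spred2*. Of 32841 RefSeq promoters of the same length, 96.0% held at least 1 site, the median was 3, 15.7% held 6 or more and 4.01% held 0. These counts describe letters in a window and say nothing of binding.

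On mm10, 8 of the 9 members lie at chr3:37639947-37644598 for *Spry1* (plus strand), chr14:105891947-105896819 for *Spry2* (minus), chr10:99263231-99267489 for *Dusp6* (plus), chr11:101769742-101785371 for *Etv4* (minus), chr16:22381309-22439719 for *Etv5* (minus), chr14:27038941-27107286 for *Il17rd* (plus), chr2:117121374-117182279 for *Spred1* (plus) and chr11:19924375-20024026 for *Spred2* (plus). All are annotated as protein coding.

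The libraries held 1247 to 5598 cells and 3828399 to 23523802 unique molecular identifiers (UMIs) each, with medians of 2478 to 5647.5 UMIs a cell. Cells of each age were clustered without the members or any other FGF pathway gene, and of the 99 clusters all but 8 unnamed and 2 mixed ones were called "X-like" from fixed marker lists or by their leading genes. The suffix is dropped in what follows. The cells of unnamed clusters, 345 and 410 at the embryonic ages and 1041 and 581 at the postnatal ages in order, entered the profiles of all epithelial cells and no comparison between classes. The class led by *Fgf20* is called *Fgf20*-led prosensory cells, because its clusters held at least as many lateral as medial markers among their leading genes. Another class has no cell type name and is called *Tectb*/*Gjb6*-led, since *Tectb*, *Gjb6* or both were among the leading 10 genes of each of its clusters. It was found at E16 and P1 only. Levels are CPM, which is 10000 times the percentage of a cell's UMIs that a gene took. Each value is the mean of 1 class in 1 library. Differences are on a log2(CPM + 10) scale, from limma over every gene that reached 10 CPM on average, and called at a Benjamini-Hochberg adjusted p under 0.05. Classes were drawn from the same cells that they describe, so p-values between classes are no test that the classes exist. They set a difference against a spread between libraries that the fit shares over all classes and ages. They do not measure how steadily a difference repeats in the libraries of its own age. Doublets were left in, since the doublet caller marked 0.0355% to 2.69% of cells and under 0.5% in 5 of the 11 libraries, too few to rely on. Of the fixed list of dissociation stress genes, the summed level over epithelial cells was 3010 to 8649 CPM and highest in both P7 libraries. A blood and immune list summed to 858 CPM in E16 replicate 2 and 0.894 to 62.5 CPM in the others, and its part in any result was not tested. Between 9 and 84 cell barcodes at each age occurred in a pair of libraries.

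*Etv4* and *Etv5* were the members that differed most between cell classes, and both were highest in IPCs, the cells that build the medial wall of the tunnel of Corti. Each class was compared with the unweighted mean of the other classes of its age, in 36 comparisons. There were 8 classes at E14, 13 at E16, 10 at P1 and only 5 at P7. The reference therefore changed with age, and log2 differences of different ages are not directly comparable. *Etv4* was called higher in 11 and lower in 19 of them, and *Etv5* higher in 12 and lower in 13. The 5 other members that could be tested were called in 3 to 9 comparisons each. Over all 7 tested members, 37 of 252 values were called higher and 47 lower. Over all genes, 7.28% of values were called higher and 7.88% lower. *Spry4* and *Spred2* had means under 10 CPM and were not tested.

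**Figure D1:**
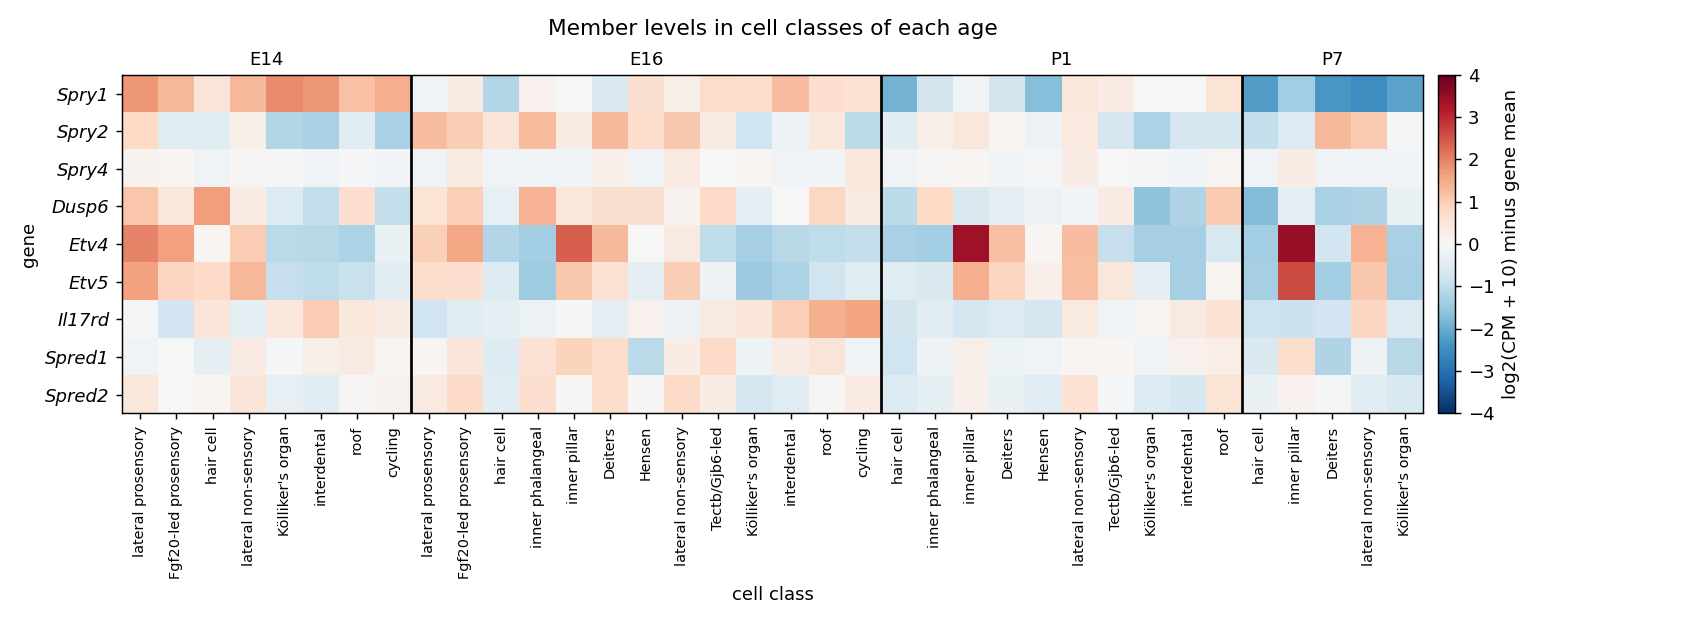
Mean level of each member in each cell class and age, as log2(CPM + 10) minus that gene's mean over all classes shown; columns are classes grouped by age and rows are genes. *Etv4* was highest in postnatal IPCs and *Etv5* in P7 IPCs. The lowest *Spry1* means were at P7, while *Spry4* barely varied because it was near 0 throughout.

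In IPCs the level of *Etv4* was 87.5, 89.4 and 198 CPM in the E16 libraries, 215, 318, 332 and 179 CPM at P1, and 313 and 253 CPM at P7. The P1 and P7 values lay above those of every other class in every library of their age. Lateral non-sensory cells came next, at 50.4 ± 24.8 CPM (SD, n = 4) at P1 and 58.7 ± 11.7 CPM (SD, n = 2) at P7. Against the other classes the log2 difference in IPCs was +2.65 at E16 (SE 0.27, adjusted p = 1.67e-13), +3.87 at P1 (SE 0.24, adjusted p = 2.7e-26) and +4.02 at P7 (SE 0.35, adjusted p = 9.42e-17). At E16 the IPC libraries overlapped with *Fgf20*-led prosensory cells, whose *Etv4* levels were 48.8, 21.4 and 126 CPM. At E14, before IPCs were found, *Etv4* was 93.3 and 91.2 CPM in lateral prosensory cells (log2 difference +2.13, adjusted p = 2.04e-06) and 73.3 and 69.4 CPM in *Fgf20*-led ones (+1.75). The second of these calls was lost without either E14 library (adjusted p = 0.06 and 0.0961).

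Kölliker's organ and inner phalangeal cells were close to empty of *Etv4*. In Kölliker's organ, the transient columnar epithelium medial to the HCs, no library exceeded 3.11 CPM. In inner phalangeal cells, which flank the inner HCs, no *Etv4* UMI was seen in any of the 3 E16 or 4 P1 libraries. At P1 a count of 3 UMIs would have been 5.10 to 14.9 CPM in those cells, which puts IPCs at least 42.1, 21.3, 28.6 and 25.7 times higher in the 4 libraries. At E16 the same bound was only 1.68, 2.79 and 14.2 times. There a count of 3 UMIs would have been 52.1, 32.0 and 13.9 CPM, beside 87.5, 89.4 and 198 CPM in IPCs. These bounds and all intervals on shares cover counting error only.

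Counted by cells, and with each cell drawn down to 1500 UMIs so that depth did not enter, an *Etv4* UMI was seen in 23.7%, 40.6%, 30.8% and 28.6% of IPCs in the P1 libraries and in 34.6% and 36.8% at P7. Without thinning, at median depths of 5606.5 to 11445 UMIs, these shares were 89.8%, 93.8%, 92.3% and 45.7% at P1 and 80.8% and 78.9% at P7. The thinned share in Kölliker's organ, which serves as background, was 0 to 0.11% at P1 and 0.0932% and 0.12% at P7. The share in IPCs was above that background in every library.

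*Etv5* was spread over more classes than *Etv4*. Lateral non-sensory cells, which lie beyond the organ of Corti, held 91.7 and 84.4 CPM at E14, 53.1, 62.9 and 86.1 CPM at E16, 67.0, 52.2, 106 and 92.0 CPM at P1, and 64.9 and 80.3 CPM at P7. They were called higher at every age, with log2 differences of +1.35, +1.33, +1.21 and +1.43. The E14 call was lost without either E14 library (adjusted p = 0.364 and 0.343) and the P7 call without P7 replicate 5 (adjusted p = 0.0749). In IPCs *Etv5* was 90.6, 48.4 and 75.9 CPM at E16 and 96.0, 60.6, 94.0 and 137 CPM at P1. At both ages the libraries overlapped with those of lateral non-sensory cells. At P7 *Etv5* was 223 and 235 CPM in IPCs, clear of the other classes found at that age, with a log2 difference of +3.35 (adjusted p = 8.35e-14). Kölliker's organ at P1 showed 4.15, 13.4, 33.8 and 25.7 CPM and the first of these libraries was below the other 3.

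**Figure D2:**
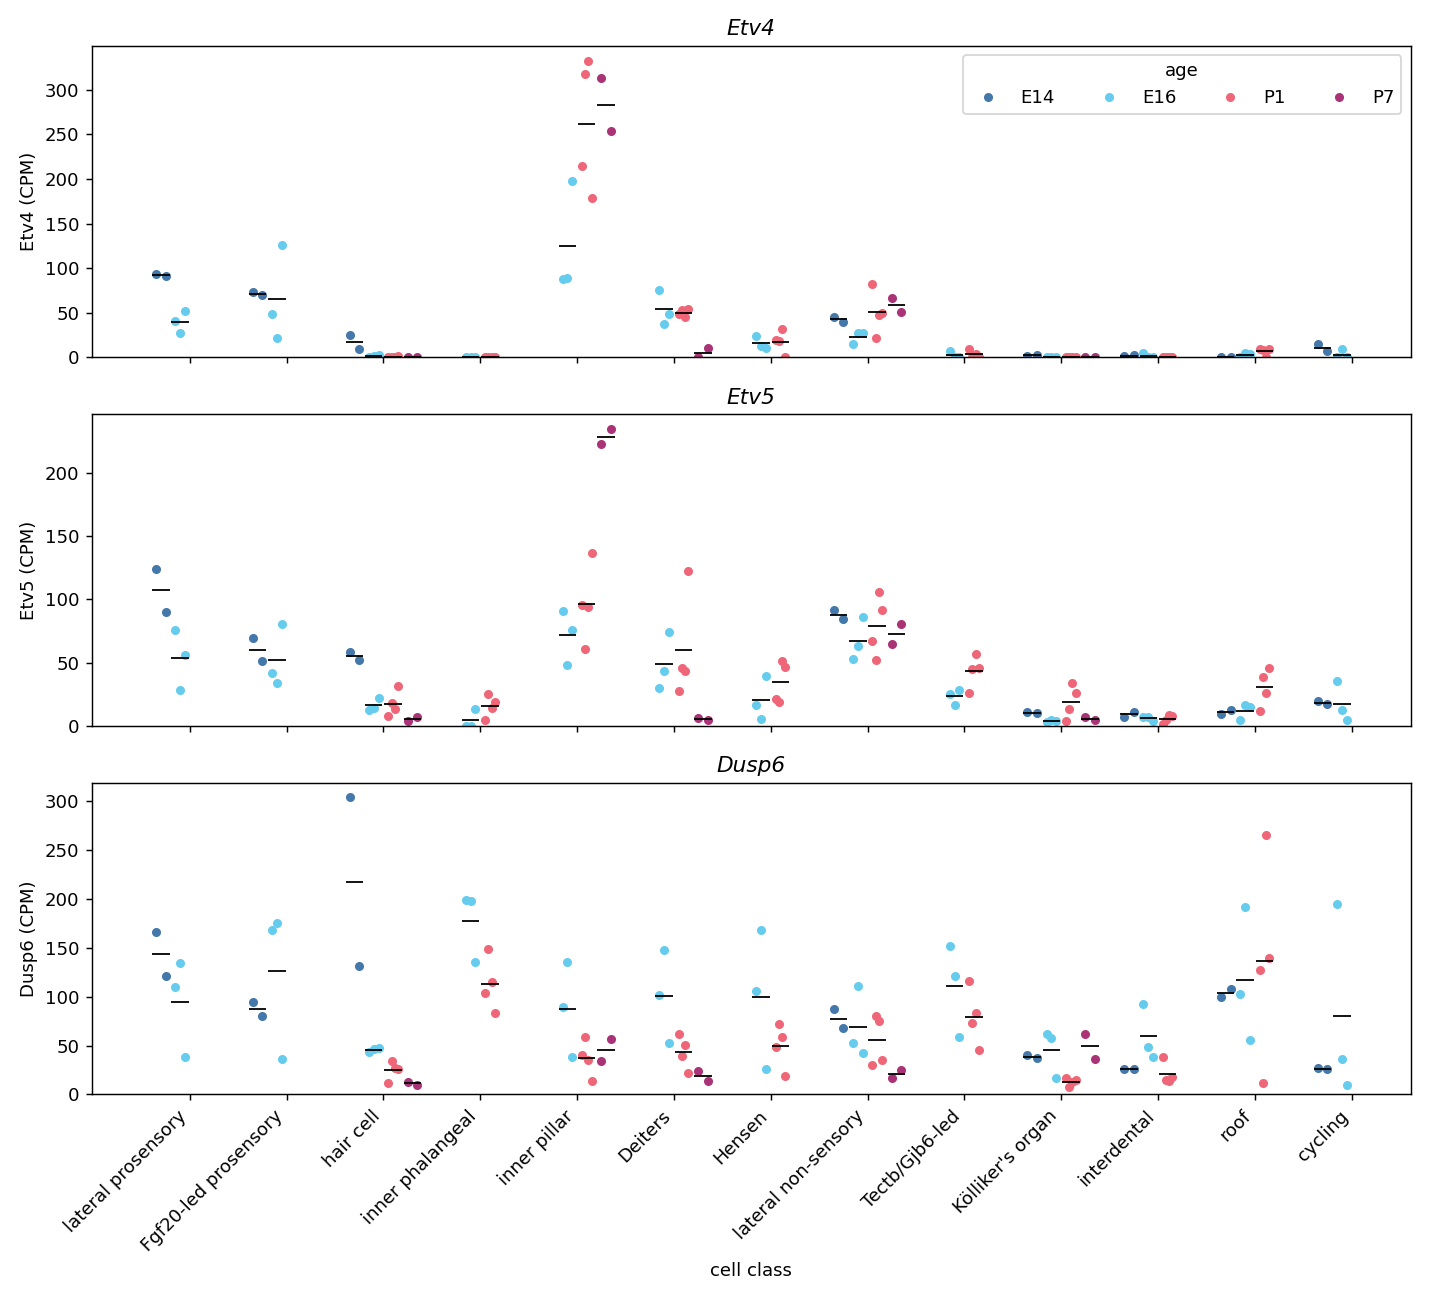
Level (CPM) of *Etv4*, *Etv5* and *Dusp6* in each cell class, with 1 point a library coloured by age and a bar at the mean. *Etv4* stood out in IPCs, where the P1 and P7 libraries lay between 179 and 332 CPM, *Etv5* in IPCs at P7, and *Dusp6* in E14 HCs, in inner phalangeal cells and in P1 roof cells, whose libraries spread from 11.6 to 265 CPM.

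IPCs and DCs both arise from the lateral domain, and the same fit compared them at P1 and P7. No class was named for outer pillar cells, which the study found close in transcription to first and second row DCs at P1. Such cells were not separated here and may be among those named DCs. *Etv4* was called between them at both ages, and *Etv5* and *Spred1* at P7. All 4 calls among 14 values were higher in IPCs, against 2.28% of all values called higher. In DCs *Etv4* was 48.6, 52.8, 44.98 and 54.0 CPM at P1, all below every IPC library, and 0 and 10.6 CPM at P7. The log2 difference, IPCs minus DCs, was +2.13 at P1 (SE 0.32, adjusted p = 2.15e-07) and +4.35 at P7 (SE 0.45, adjusted p = 6.09e-13). *Etv5* in DCs was 27.5, 46.0, 43.2 and 122 CPM at P1, overlapping with IPCs, and 6.06 and 4.38 CPM at P7. Its log2 difference was +0.74 at P1 (95% interval 0.13 to 1.34, adjusted p = 0.237) and +3.97 at P7 (SE 0.43, adjusted p = 4.24e-12). The change of the IPC-to-DC difference from P1 to P7 was itself called for both genes, at 2.21 for *Etv4* (SE 0.55, adjusted p = 0.00884) and 3.24 for *Etv5* (SE 0.53, adjusted p = 7.16e-06). Of all genes, 2.31% passed that test. *Spred1* did not, with a P1 difference of +0.50 and a change of 1.39 (SE 0.60, adjusted p = 0.298).

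*Spred1*, which helps shut off RAS, was 40.5 and 72.6 CPM in P7 IPCs against 4.40 and 11.1 CPM in P7 DCs. The log2 difference was +1.89 (SE 0.49, adjusted p = 0.00576), and it was not called without P7 replicate 4 (adjusted p = 0.107) or 5 (adjusted p = 0.192), where 1 P7 library was assumed to vary like the rest. *Spry2* went the other way in value, at 5.92 and 13.1 CPM in IPCs and 18.4 and 98.4 CPM in DCs (log2 difference -1.53, 95% interval -2.64 to -0.42, adjusted p = 0.0857). *Dusp6*, *Spry1* and *Il17rd* were not called at either age. These P7 values rest on 26 and 19 IPCs and on 57 and 52 DCs. An *Etv4* UMI was seen in 0 of 57 DCs of replicate 4 after thinning, for which the exact 95% upper limit is 6.27%, and in 1.92% in replicate 5.

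Of the other pathway genes fixed as lists, *Fgfr1* was lower in IPCs at both ages (log2 difference -1.52 and -1.60) and *Fgfr3* was higher at P7 (+1.81, adjusted p = 0.00335). Of 9 tested genes among 16 other ERK feedback and target genes, 2 were higher and 0 lower at P1, and 2 were higher and 2 lower at P7. *Ccnd1*, a cyclin of the G1 phase, was higher at both (+2.30 and +3.14), *Etv1*, the other PEA3 gene, was higher at P7 (+2.32), and *Dusp5*, a nuclear ERK phosphatase, was lower at P7 (-3.05). Of the stress genes, *Nr4a1* (-2.65), *Atf3* (-2.45) and *Btg2* (-1.78) were lower in P7 IPCs, and their part in these differences was not tested.

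**Figure D3:**
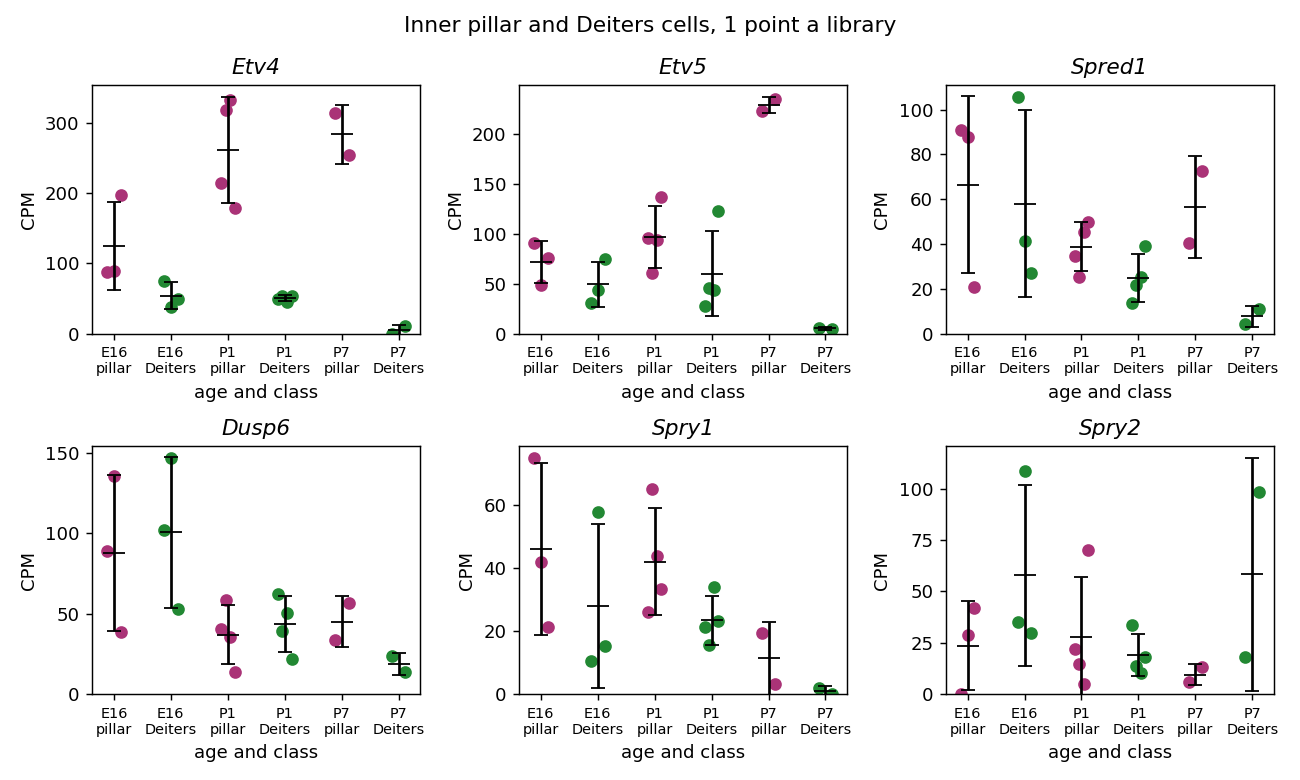
Level (CPM) of 6 members in IPCs and DCs at E16, P1 and P7; points are libraries, the horizontal bar is the mean and the vertical bar 1 SD, drawn from 0 where it would pass below it. *Etv4* at P1 and P7, and *Etv5* and *Spred1* at P7, were higher in all IPC libraries than in all DC libraries. So were *Etv4* at E16, where no test was made, and *Dusp6* and *Spry1* at P7, which were not called. *Spry2* at P7 was lower in all IPC libraries and was not called.

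At each age *Dusp6* had its highest mean in another class than *Etv4*, but the libraries of its highest and next class overlapped. Lateral prosensory cells came next at E14, at 166 and 121 CPM. The next class was *Fgf20*-led prosensory cells at E16 (126.6 ± 78.1 CPM, SD, n = 3) and IPCs at P7 (45.3 ± 16.1 CPM, SD, n = 2). E14 HCs held 303 and 131 CPM, and their log2 difference from the other E14 classes was +1.56 (SE 0.35, adjusted p = 0.00429). It was not called without E14 replicate 1 (+1.06, adjusted p = 0.511), and the class had only 61 cells. E16 HCs held 43.3, 46.8 and 47.3 CPM. Inner phalangeal cells, where *Etv4* was not seen, held 199, 198 and 136 CPM of *Dusp6* at E16 (+1.17, adjusted p = 0.00455, lost without E16 replicate 3 at 0.0653) and 103.3, 148, 115 and 83.1 CPM at P1 (+1.30, adjusted p = 0.000265). The highest mean at P1 was in roof cells, at 127, 11.6, 265 and 139.6 CPM from 10 to 73 cells a library (+1.09, adjusted p = 0.00146, lost without P1 replicate 3 or 4 at 0.144 and 0.064). They overlapped with inner phalangeal cells. Among epithelial classes at P7 the highest mean was in Kölliker's organ, at 62.2 and 36.6 CPM, which was not called (+0.87, adjusted p = 0.172). At P1 the *Tectb*/*Gjb6*-led cells held 116, 72.8, 83.1 and 45.8 CPM and Kölliker's organ 17.2, 7.73, 13.2 and 14.5 CPM, which was called lower (-1.36). Over the 36 comparisons *Dusp6* was called higher in 4 and lower in 5.

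*Spry1* was broad in the embryo and low in HCs after that. At E14 it was 169 and 225 CPM in Kölliker's organ, 214 and 140.2 CPM in lateral prosensory cells and 87.7 and 52.3 CPM in HCs, the lowest class. HCs were called lower at E16 (19.1, 15.7 and 10.3 CPM, log2 difference -1.35) and at P1 (4.51, 3.43, 3.05 and 9.37 CPM, -1.62), and Hensen's cells, which border the DCs laterally, were lower at P1 (-1.48). Interdental cells, which lie medially in the spiral limbus, were higher at E16 (136, 110.5 and 116 CPM, +1.24), a call lost without E16 replicate 3 (adjusted p = 0.148). *Spry2* was higher in E14 lateral prosensory cells (31.4 and 43.7 CPM, +1.501, adjusted p = 0.0206), where leaving out E14 replicate 1 or 2 gave adjusted p = 0.213 or 0.779. It was lower in Kölliker's organ at E16 (-1.30, adjusted p = 0.153 without E16 replicate 2) and at P1 (-0.98, adjusted p = 0.0848 without P1 replicate 1 and 0.119 without P1 replicate 4). Over the 36 comparisons *Spry1* was called higher in 2 and lower in 3, and *Spry2* higher in 2 and lower in 4. Not all of these are named here. *Spry4* was near the limit of detection. Its highest level in any epithelial class and library was 10.1 CPM, in *Fgf20*-led cells of E16 replicate 3, and it was listed at 0 in all E16 HC, lateral prosensory and IPC libraries.

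*Il17rd* was higher in cycling and roof cells at E16, where *Etv4* was called lower (-0.95, adjusted p = 0.0902 and 0.125 without E16 replicate 1 or 3, and -0.93, adjusted p = 0.108 without E16 replicate 1), and in P7 lateral non-sensory cells, where *Etv4* was also called higher (+1.40, adjusted p = 0.0018, and 0.124 without P7 replicate 4). The level of *Il17rd* was 68.8, 43.1 and 21.3 CPM in E16 cycling cells (log2 difference +1.47, adjusted p = 1.36e-05), 53.2, 49.3 and 16.2 CPM in E16 roof cells (+1.32), and 24.9 and 21.8 CPM in P7 lateral non-sensory cells (+1.61, adjusted p = 0.000281). The P7 values rest on few counts. An *Il17rd* UMI was seen in 15.8% of 19 such cells in replicate 4 and 11.8% of 17 in replicate 5, and in 0 of either after thinning. E16 lateral prosensory cells held 0, 1.74 and 0 CPM and were called lower (-0.99). Over the 36 comparisons *Il17rd* was called higher in 5, not all of them named here, and lower in 1. Interdental cells had the highest mean at E14, at 27.2 ± 7.65 CPM (SD, n = 2), and held 25.6 ± 12.1 CPM (SD, n = 3) at E16. *Spred1* differed little between classes, with 1 comparison higher (P7 IPCs, +1.45, adjusted p = 0.00315, and 0.213 without P7 replicate 5) and 2 lower (E16 Hensen's cells, -1.37, and P1 HCs, -0.71). For P1 HCs the call was lost without P1 replicate 3 or 4 (adjusted p = 0.0918 and 0.0944). *Spred2* reached 49.99 CPM at most, in inner phalangeal cells of E16 replicate 1, and was 0 in those of replicate 2.

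HCs share an origin with the lateral supporting cells and were compared with them directly, at E16 with lateral prosensory cells and at P1 and P7 with the mean of IPCs and DCs. Of 21 member values, 9 were called lower in HCs and 0 higher by limma, and at an unadjusted p under 0.05 the counts were 10 and 0. Over all genes 28.7% of values were called in either direction and 14.7% were called lower, so many genes separate these cells. *Etv4* in HCs was 0, 2.02 and 2.50 CPM at E16, 0, 0, 0.450 and 1.77 CPM at P1 and 0 in both P7 libraries. Its log2 differences were -2.10, -3.58 and -2.69 (adjusted p = 3.11e-06, 5.37e-21 and 9.31e-09). Against 3 UMIs a library, the lateral cells at P7 were at least 25.6 and 20.7 times higher. That level was carried by IPCs, at 313 and 253 CPM, since P7 DCs held 0 and 10.6 CPM of *Etv4*. *Etv5* was 12.5, 14.0 and 22.2 CPM in E16 HCs and 4.11 and 6.94 CPM in P7 HCs, and its log2 differences were -1.22, -1.60 and -1.96 (adjusted p = 0.00787, 2.56e-07 and 9.27e-06). The E16 call for *Etv5* was lost without E16 replicate 1 (adjusted p = 0.142). P7 DCs held 6.06 and 4.38 CPM of *Etv5*, within the range of P7 HCs, so its P7 difference too lay in IPCs.

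The other 3 calls were of inhibitors of the pathway. *Spry1* was lower in HCs at P1 (-1.45, adjusted p = 0.000336). *Spred1* was lower at P1 (-0.77, adjusted p = 0.0312), a call lost without any 1 of the P1 libraries (adjusted p = 0.0536, 0.0553, 0.0859 and 0.136). *Spry2* was lower at P7 (-1.20, adjusted p = 0.0472) and lost without P7 replicate 4 or 5 (adjusted p = 0.0708 and 0.535), either E14 library (0.0586 and 0.0588), E16 replicate 2 (0.0507) or P1 replicate 1 (0.0624). *Dusp6* differences were -0.75, -0.51 and -0.87, none called. *Fgf8* was higher in HCs at all 3 ages (+4.64, +4.64 and +4.94), and when HCs were split by marker genes it was 935 CPM in inner HCs at E16, 1357 CPM at P1 and 805 CPM at P7. *Fgfr3* was lower in HCs (-1.36, -3.39 and -2.85). Of the other ERK feedback and target genes, *Phlda1* was lower at each age (-1.06, -3.18 and -4.66), and of the cascade itself *Map2k1*, which encodes the kinase MEK1, was lower at each age (-1.28, -2.21 and -3.75). The stress genes split between the directions, with *Hspa1a* at +6.42 in P7 HCs and *Nr4a1* at -1.27.

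The study separates the early sensory domain by *Fgfr3* and *Fgf20*, and lateral prosensory cells were compared with the *Fgf20*-led ones at E14 and E16. No member was called among 14 values, where 1.9% of all values were, and 1 had an unadjusted p under 0.05 (limma). That was *Spry2* at E14, with 31.4 and 43.7 CPM laterally against 16.1 and 3.26 CPM (+1.34, 95% interval 0.23 to 2.45, adjusted p = 0.652). The intervals of the others were wide. For *Etv4* the log2 difference was +0.33 at E14 (-0.56 to 1.22) and -0.37 at E16 (-1.09 to 0.36), and for *Etv5* at E14 it was +0.74 (-0.12 to 1.59). *Fgfr3* itself was higher in the lateral cells at both ages (+3.63 and +1.44). The *Fgf20*-led cells held 18.6 ± 0.870 CPM of *Fgfr3* at E14 (SD, n = 2) but 124.7 ± 80.6 CPM at E16 (SD, n = 3). The E16 comparison is therefore between groups that both held the receptor. *Fgf20* served to name the second class and is no result here. A further 180 prosensory cells at E14 whose side was not resolved held 151 and 109.9 CPM of *Etv4*.

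The steps between ages were read over all epithelial cells, and again within Kölliker's organ and within the lateral domain to narrow the mix of classes. The mix still changed in both. The classes that make up the lateral domain differ between ages, and *Tectb*/*Gjb6*-led cells were apart from Kölliker's organ at E16 and P1 but not at P7, where *Tectb* was among the leading 10 genes of 5 of its 8 clusters. *Spry1* was lower at P7 than at P1 in all 3 settings. Over all epithelial cells it was 145 and 161 CPM at E14, 78.2, 81.1 and 58.1 CPM at E16, 21.1, 36.3, 55.4 and 61.2 CPM at P1, and 2.54 and 2.16 CPM at P7. The ages overlapped only between E16 and P1. The step from P1 to P7 was called, with a log2 difference of -2.04 over all epithelial cells (SE 0.28, adjusted p = 0.000187) and -1.98 in Kölliker's organ (SE 0.37, adjusted p = 0.00165), where it was 14.8, 35.8, 60.5 and 71.4 CPM at P1 and 2.86 and 2.82 CPM at P7. Neither call was lost in any alternative analysis, and with *Tectb*/*Gjb6*-led cells added to Kölliker's organ the difference was -2.08. The steps from E14 to E16 and from E16 to P1 were not called over all epithelial cells (-0.99, adjusted p = 0.0579, and -0.68, adjusted p = 0.0862) or in Kölliker's organ (-1.19, adjusted p = 0.086, and -0.84, adjusted p = 0.113). In the lateral domain *Spry1* was 214 and 140.2 CPM at E14 and 30.1 to 50.8 CPM at E16 (-1.89, adjusted p = 0.00354, and 0.124 without E14 replicate 1), then 22.3 to 35.5 CPM at P1 and 7.62 and 0.884 CPM at P7 (-1.43, adjusted p = 0.00679, and 0.174 without P7 replicate 5). Over all genes 23.9% of values were called from P1 to P7 in epithelial cells, 22.1% in Kölliker's organ and 11.1% in the lateral domain, where the step from E14 to E16 called 3.04%. Over all epithelial cells the stress list was highest at P7, with 4 of 11 tested genes higher and 0 lower than at P1, and its part was not tested. It had 0 higher and 2 lower genes from E14 to E16, and 3 higher and 0 lower from E16 to P1. In the lateral domain the list was highest at E14, where it summed to 7037 and 5921 CPM, against 2066 to 3517 CPM at E16, 1749 to 2833 CPM at P1 and 2628 and 3078 CPM at P7, so it was lower at E16 than at E14 as *Spry1* was. The mesenchyme list of 6 genes summed to 84.0 and 109.9 CPM over epithelial cells at P7 and to 12.2 to 30.3 CPM at P1, and in Kölliker's organ to 121 and 161 CPM at P7 and to 10.9 to 37.2 CPM at P1. In the E14 lateral domain the neuron list of 4 genes summed to 1.92 CPM in replicate 1 and 300.04 CPM in replicate 2. The part of these lists in the steps was not tested.

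The other members changed less with age, or in 1 setting. *Etv4* over all epithelial cells was 24.2 and 18.5 CPM at E14 and 10.1, 6.73 and 11.6 CPM at E16, a log2 difference of -0.69 (SE 0.16, adjusted p = 0.0244, with 8.3% of genes called in that step). The call was lost without E16 replicate 1 (adjusted p = 0.0706) or 2 (adjusted p = 0.0983). In the lateral domain no step of *Etv4* was called, and its levels were 93.3 and 91.2 CPM at E14, 38.8 to 101.1 CPM at E16, 76.6 to 116 CPM at P1, and 98.1 and 75.6 CPM at P7. The lateral domain at P7 therefore averaged IPCs near 283 CPM with DCs near 5.29 CPM. *Dusp6* in Kölliker's organ was 62.2, 58.0 and 16.6 CPM at E16, lower at P1 (-1.15, adjusted p = 0.0276) and 62.2 and 36.6 CPM at P7, higher than at P1 (+1.34, adjusted p = 0.014). Leaving out E16 replicate 1 or 2 gave adjusted p = 0.158 or 0.141 for the first step, leaving out P1 replicate 2 or 3 gave 0.0759 or 0.0599, and leaving out P7 replicate 4 gave 0.202 for the second. With *Tectb*/*Gjb6*-led cells added, which held 79.4 ± 28.98 CPM of *Dusp6* at P1 (SD, n = 4), neither step was called (-0.66, adjusted p = 0.178, and +0.70, adjusted p = 0.174). In the class 12.5% of genes were called in the first step. The stress list summed in Kölliker's organ to 3000 to 3967 CPM at E16, 2863 to 5914 CPM at P1, and 8483 and 6738 CPM at P7. Its part in the steps of *Dusp6* was not tested.

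*Spry2* over all epithelial cells fell from 26.7, 22.5 and 10.3 CPM at E16 to 9.002, 3.03, 3.62 and 6.95 CPM at P1 (-0.90, SE 0.22, adjusted p = 0.0157, with 13% of genes called) and was 11.8 and 22.4 CPM at P7 (+0.78, SE 0.24, adjusted p = 0.0345). The fall was lost without E16 replicate 1 or 2 (adjusted p = 0.094 and 0.0827) and the rise without P7 replicate 5 (+0.50, adjusted p = 0.356), P1 replicate 2 or 3 (0.081 and 0.0821) or either E14 library (0.0508 and 0.0501). *Etv5* and *Spred1* had no called step in any setting, and *Il17rd*, tested only in Kölliker's organ, had none there. With *Tectb*/*Gjb6*-led cells added to Kölliker's organ, *Etv5* was called higher from E16 to P1 (+1.03, adjusted p = 0.0145) and lower from P1 to P7 (-1.05, adjusted p = 0.0147). In all, 4 of 18 epithelial values were called, against 15.1% of all values. The counts were 3 of 15 in Kölliker's organ (13.2%) and 2 of 18 in the lateral domain (6.4%). With so few calls, these shares are of the same order as those over all genes. P1 replicate 1 stood apart for *Spry1* and *Etv5*. Without it the count of members called lower rose from 3 to 8 in epithelial cells and from 2 to 5 in Kölliker's organ. E16 replicate 3 was below the other E16 libraries for *Dusp6*, *Spry2*, *Il17rd* and *Spred1*.

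**Figure D4:**
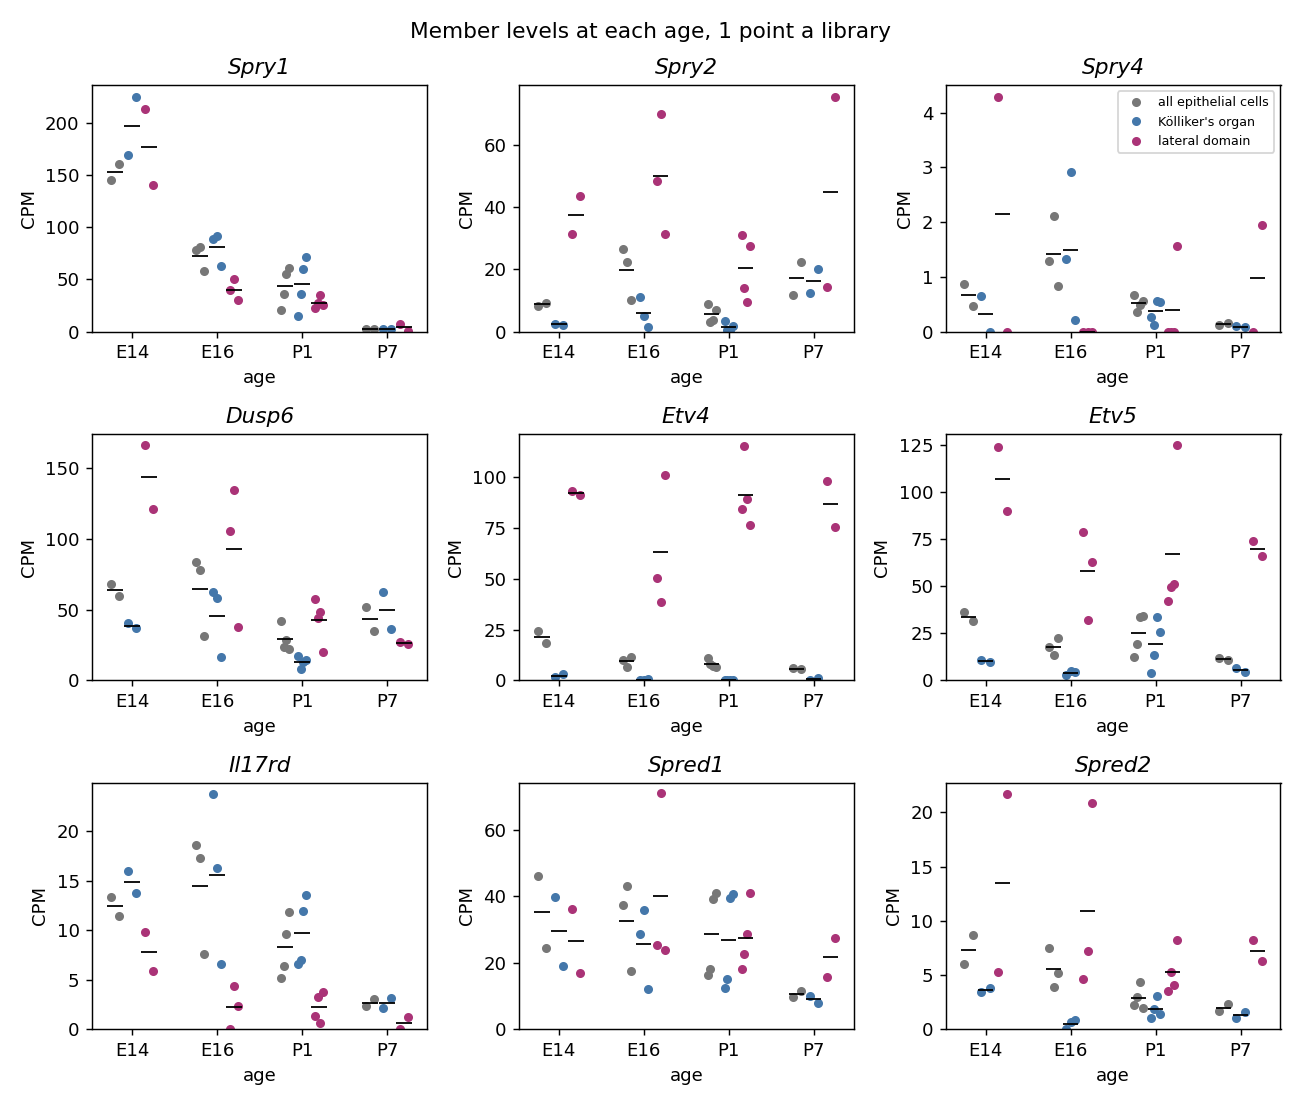
Level (CPM) of each member at each age over all epithelial cells (grey), Kölliker's organ (blue) and the lateral domain (magenta), with 1 point a library and a bar at the mean; panels have their own scales. *Spry1* fell to 2.54 CPM or less over all epithelial cells at P7, and *Etv4* was at least 38.8 CPM in every lateral domain profile and at most 3.11 CPM in Kölliker's organ.

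The other pathway genes were read over all epithelial cells in the same steps. Of 3 tested ligands, 1 was higher and 1 lower from E14 to E16, 0 and 2 from E16 to P1, and 0 and 0 from P1 to P7. Of 4 tested receptors and co-receptors, 1 was lower and 0 higher at each step. Of 9 tested genes among the other ERK feedback and target genes, 0 were higher and 2 lower in the first step, 1 and 1 in the second, and 1 and 3 in the last. *Fgfr2* fell at both early steps over all epithelial cells (-0.62 and -1.17) and *Fgfr1* fell from P1 to P7 in all 3 settings (-2.37, -2.38 and -1.88). *Ccnd1* fell at every epithelial step (-1.36, -1.63 and -1.19). Of the 15 tested adaptors and cascade genes, *Mapk3*, which encodes ERK1, was the only one called over epithelial cells, at +0.82 from P1 to P7. *Fgf10* rose from E14 to E16 (+0.87) and fell to P1 (-0.80), and *Fgf9* fell at both steps (-0.74 and -0.89). None of the 4 intracellular FGF homologues passed the filter on low levels. The median of all genes moved by -0.15 from E14 to E16 in epithelial cells, -0.18 in Kölliker's organ and -0.15 in the lateral domain. It moved by -0.11 from P1 to P7 in the lateral domain. Its part in the steps of *Spry1* was not tested.

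Co-detection with the receptor was read in prosensory and supporting cells, split in each library into cells with and without an *Fgfr3* UMI after thinning to 1500 UMIs. At P7 the cells with *Fgfr3* held more *Etv4*, *Etv5* and *Spred1*. *Etv4* was 173 and 137 CPM with *Fgfr3* and 38.1 and 40.3 CPM without (log2 difference +1.73, SE 0.29, adjusted p = 0.000621). *Etv5* was 114 and 133 CPM against 42.1 and 27.5 CPM (+1.59, SE 0.34, adjusted p = 0.00679, and 0.183 without P7 replicate 5). *Spred1* was 26.3 and 56.2 CPM against 7.22 and 10.96 CPM (+1.37, SE 0.37, adjusted p = 0.042), a call lost when either P7 library (adjusted p = 0.0731 and 0.317) or any of the P1 libraries (0.0538 to 0.0673) was left out. In the mean over the 4 ages *Etv4* (+0.54, adjusted p = 0.0156) and *Etv5* (+0.70, adjusted p = 0.00577) were called. Both were lost without E14 replicate 2 (adjusted p = 0.0861 and 0.0743), and *Etv4* without P7 replicate 4 (0.056). These are 5 calls of 35 values, all higher, against 0.646% of all values called higher. With cells over 3000 genes or 15000 UMIs left out, or without the library block, 1 call was left, *Etv4* at P7 (+1.21, adjusted p = 0.0419, and +1.73, adjusted p = 0.0348). With lateral domain cells alone 2 were called.

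The mix of classes moved with the split. At P7 the cells with *Fgfr3* were 20 IPCs and 17 DCs in replicate 4 and 13 and 13 in replicate 5, while those without were 6 and 40, and 6 and 39. When classes were kept apart, the P7 log2 differences were +1.19 for *Etv4* (adjusted p = 0.911), -0.29 for *Etv5* and +0.37 for *Spred1* (both adjusted p = 1.0). After thinning, no inner phalangeal cell at P1 had an *Fgfr3* UMI, and *Etv4* was +0.67 with *Fgfr3* (adjusted p = 0.158). At E14 and E16 *Etv4* was -0.11 and -0.16, neither called, and under coarser clusters the E16 value turned to +1.72 (adjusted p = 0.00612). The difference between P7 and P1 was +1.06 for *Etv4* (adjusted p = 0.186), +1.14 for *Etv5* (0.245) and +1.34 for *Spred1* (0.198), so a change of co-detection with age was not called, while 1.4% of all genes were.

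By share of cells, 16.2% and 23.1% of P7 cells with *Fgfr3* had an *Etv4* UMI, against 6.52% and 4.44% of those without. Without thinning the shares were 45.9% and 42.3% against 8.70% and 13.3%. For *Etv5* the thinned shares were 21.6% and 19.2% against 4.35% and 6.67%. *Dusp5* was lower in cells with *Fgfr3* at P1 (-1.14), P7 (-1.62) and in the mean over ages (-0.93).

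**Figure D5:**
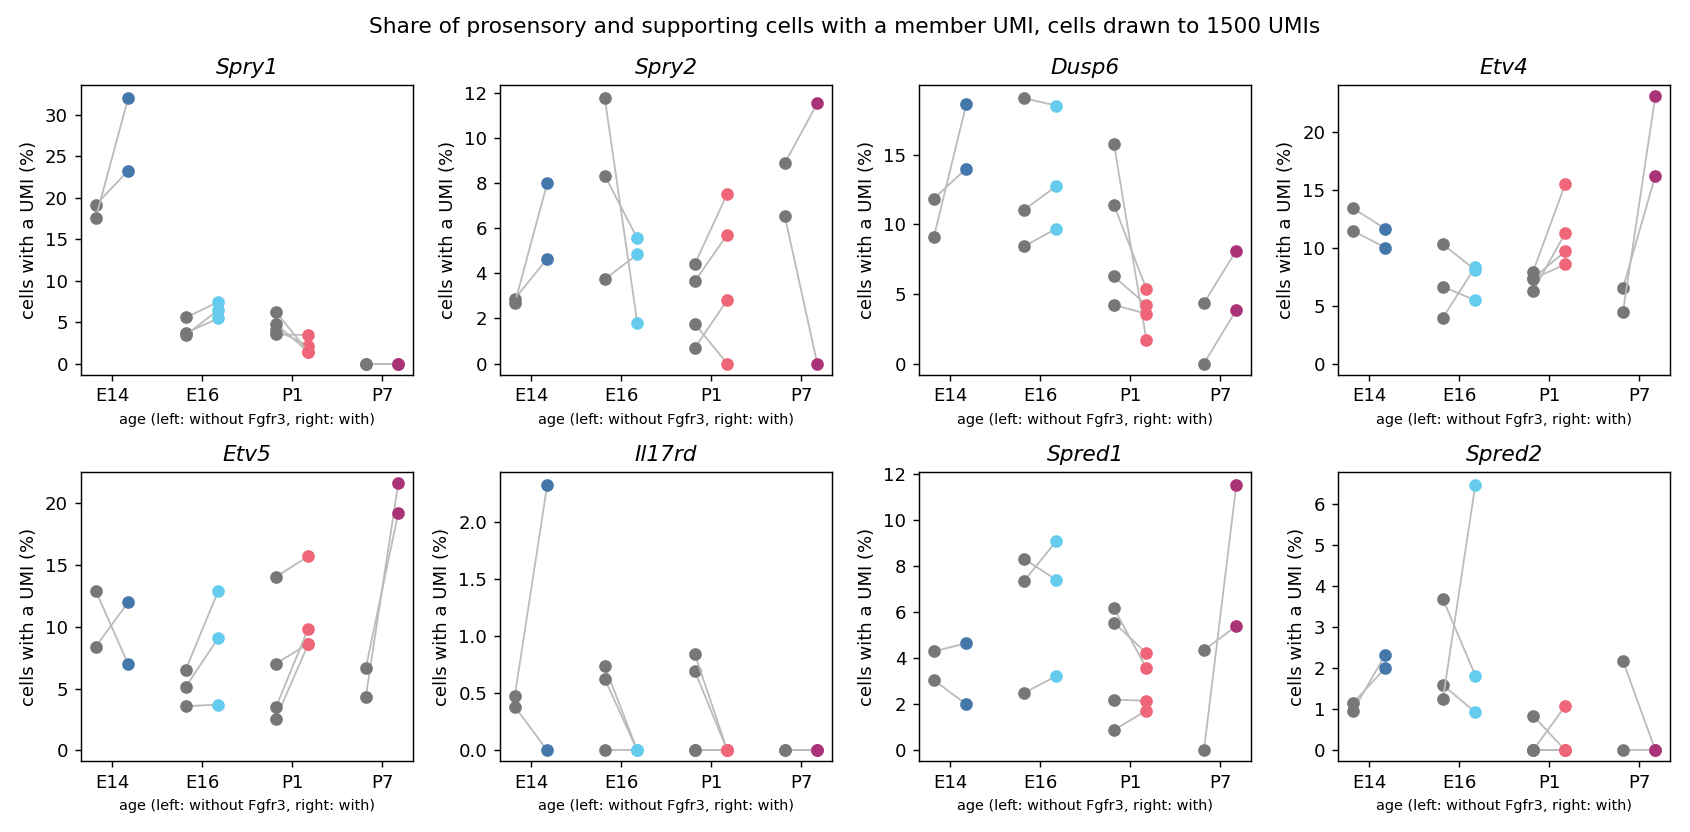
Share (%) of prosensory and supporting cells with a UMI of each member, with every cell thinned to 1500 UMIs; grey points are cells without and coloured points cells with an *Fgfr3* UMI, and a line joins the points of 1 library. The lines for *Etv4* and *Etv5* rose in both P7 libraries, from 6.52% to 16.2% and 4.44% to 23.1% for *Etv4*, and had no common direction at E16 for *Etv4*. *Spry4* is not drawn.

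Cells with *Fgf20* were compared in the same way at E14 and E16, with less data. Only E16 replicate 3, with 31 such cells, entered at E16, since the other 2 libraries had 8 each, and the fit had 1 residual degree of freedom. None of 21 member values was called, where 1.15% of all values were. At an unadjusted p under 0.05, 3 passed in limma, all higher with *Fgf20*. They were *Etv4* at E14 (+0.68), *Spry1* at E16 (+1.21) and *Spry1* in the mean of both ages (+0.70). The values at E16 rest on 1 library with such cells, assumed to vary like the E14 libraries, and are no replicated test of that age, which also enters the mean. *Etv4* at E14 was 167 and 128 CPM with *Fgf20* and 94.6 and 81.7 CPM without. The mix of classes moved with this split too, since 29 of 38 and 30 of 43 cells with *Fgf20* were of the *Fgf20*-led class, against 61 of 214 and 96 of 269 without. The thinned share of cells with an *Etv4* UMI was 23.7% and 18.6% with *Fgf20* and 11.2% and 10.0% without. *Fgfr3* was lower in the cells with *Fgf20* at E14 (-2.24, adjusted p = 1.87e-09), and its difference at E16 was -2.28.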

How the data were processed

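Droplet 3' single-cell RNA-seq was made by the authors from the dissected floor of the cochlear duct (stroma, roof and lateral wall removed after thermolysin) of CD1 mice, pooled by library. Per the labels the submitters' notes name Cell Ranger 2.1.1, Seurat 2.0 and mm10. The deposited values are natural log values, ln(1 + 10000 × the share of a cell's UMIs), made by the authors, and every cell summed to 10000 after the log was undone. UMIs were recovered as whole numbers for 100% of values, within 0.02 of a whole number. They were used for CPM, depth, shares, thinning, counting bounds, doublet calls and the alternative with summed UMIs. No deposited cell was left out for its depth, other than cells under 1500 UMIs where cells were thinned. The E14 table, with 5253 cells, holds more cells than the study states. The P7 table, with 3377, holds more than the study's text states, though a figure legend there gives a number near it. Cells with over 3000 genes numbered 340 and 552 in the E14 libraries, 0 to 134 at E16, 170 to 350 at P1, and 120 and 145 at P7. An alternative left out cells over 3000 genes or 15000 UMIs. CPM was worked out per cell from the recovered UMIs. Cells of each age were clustered with scanpy 1.11.5 and leidenalg 0.10.2 (2000 variable genes, 30 components, 20 neighbours, resolution 2), with libraries aligned and without the members and pathway genes, and clusters were named by hand from fixed markers after they were seen. Cells with markers of both HCs and DCs (36 at P1, 34 at P7), mesenchyme (258) and glia (178) at P7 were left out of epithelial classes.

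Profiles of at least 10 cells a library entered limma 3.58.1 (R 4.3.3, trend) on log2(mean CPM + 10), after genes below 10 CPM on average were dropped, adjusted by Benjamini-Hochberg over all genes tested. Age fits had 11 profiles and 7 residual degrees of freedom. The class fit had 105 profiles, 62 degrees of freedom and library as a block, and the *Fgfr3* and *Fgf20* fits had 22 and 8 profiles, 7 and 1 degrees of freedom and library as a block. The fit was tested on simulated data. The lateral domain was lateral prosensory cells at E14, these and IPCs at E16, and IPCs and DCs at P1 and P7. The 240 cells named DCs at E16 were left out of it and of the HC comparison of that age. Intervals of shares are exact binomial at 95%. All 9 members were named in every comparison where they could be tested; of the other pathway genes, fixed in lists, up to 3 called genes with the largest change in each direction could be named. The members, lists and comparisons were chosen with earlier results of these data known. Same-numbered libraries of different ages did not deviate together (correlations -0.284 to 0.0881). Differently numbered ones ran from -0.294 to 0.294, so these values cannot tell whether the numbers pair libraries. The main analysis did not pair libraries by number.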

Additional observations from a re-analysis of the deposited data

Results flagged for a closer look

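Of 56 groups of 4 P1 libraries, 4 had a library far from the other 3 by Dixon's criterion, where chance gives about 1 in 20. In interdental cells, P1 replicate 1 was at 26.9 CPM of *Spry1*, with the others at 49.96 to 53.8 CPM. The same library was at 38.6 CPM of *Dusp6* in those cells, with the others at 13.3 to 17.4 CPM. *Il17rd* in P1 roof cells reached 63.1 CPM in replicate 4 while no other library passed 5.90 CPM. *Spred1* in P1 HCs reached 17.9 CPM in that replicate, above a range of 11.9 to 12.7 CPM.

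The difference of IPCs from DCs was larger at P7 than at P1, on the log2 scale, by 2.21 for *Etv4* and 3.24 for *Etv5*, and both passed the test of that change.

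Cells outside the epithelial classes at P7 also held members. In P7 mesenchyme the mean of 2 libraries was 9.76 CPM for *Spry2*, 15.2 CPM for *Spry4*, 31.1 CPM for *Dusp6*, 48.0 CPM for *Etv4*, 18.9 CPM for *Etv5* and 49.8 CPM for *Spred1*. The *Spry4* libraries were 24.6 and 5.76 CPM. In P7 glia the mean was 80.4 CPM for *Dusp6*, with libraries at 140.4 and 20.4 CPM, and 55.1 CPM for *Spred1*. No test was made on these cells.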

How the results depend on the processing

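Of 3735 single member values under alternatives other than leaving out a library, 3513 kept their direction and side of the threshold, 160 lost a call, 60 gained one and 2 reversed. The reversals were *Etv4* with *Fgfr3* at E16 under coarser clusters (+1.72, adjusted p = 0.00612, main value -0.16) and *Etv5* with *Fgfr3* at P7 with classes kept apart (-0.29, main value 1.59). Of 4108 values with 1 library left out, 116 lost a call, 45 gained one and none reversed. The cause was not tested for any of these.

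Over epithelial cells the count of members called higher between ages was 0 with no filter, with UMIs summed over cells and with all deposited cells (1 in the main analysis), and the count lower was 5 with deposited log means (3). In Kölliker's organ the count higher was 2 with no filter, median-of-ratios rescaling, summed UMIs, coarser clusters and log means, and 0 with a replicate block (1). In the lateral domain the count lower was 1 with a pseudocount of 1, 1 with the replicate block and 0 with coarser clusters (2, or 1 over the comparisons that coarser clusters allow). Class against class, 31 values were lower with a pseudocount of 1 (47). IPCs minus DCs had 1 lower with log means (0). Over these alternatives the count higher in IPCs ran from 1 to 5 (4), and the count lower in HCs from 5 to 9 (9). With *Fgfr3*, 1 was higher with no replicate block, 1 with cells over 3000 genes or 15000 UMIs removed, 3 with coarser clusters, 2 in the lateral domain alone and 0 with classes kept apart (5). With *Fgf20*, 1 was higher among *Fgf20*-led cells alone (0). Adding *Tectb*/*Gjb6*-led cells to Kölliker's organ, an analysis chosen after seeing the data, left both counts there unchanged but not the genes, since *Dusp6* lost its 2 calls and *Etv5* gained 2. The block on replicate number changed no other count by over 1.5 times.

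Leaving out 1 library at a time gave 0 to 2 higher and 1 to 8 lower over epithelial cells, 0 to 2 and 1 to 5 in Kölliker's organ, 1 to 3 lower in the lateral domain, 26 to 37 higher and 37 to 48 lower between classes, 7 to 9 lower in HCs, 3 to 4 higher and 0 to 1 lower in IPCs, and 3 to 5 higher with *Fgfr3*. Low levels limit *Spry4* and *Spred2*, and the P7 IPCs, DCs and lateral non-sensory cells rest on 17 to 57 cells a library.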

Other observations

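Over the 36 age-by-class means, *Etv4* and *Etv5* were each other's closest genes by level (Pearson r = 0.90). The next were *Ngfr* (0.86) and *Cmas* (0.84) for *Etv4* and *Rtn1* (0.81) and *Cmas* (0.78) for *Etv5*. *Ngfr* and *Rtn1* were among the markers used to name IPCs. *Dusp6* was most like *Id3* (0.76), *Nes* (0.74) and *Id1* (0.69), *Il17rd* like *Pdgfc* (0.76), *Adamts9* (0.75) and *Wfdc2* (0.74), and *Spry2* like *Zbtb20* (0.78), *Igfbp5* (0.75) and *Agr3* (0.71). *Spry1* was most like *Tpm3-rs7* (0.91), *Igf2bp3* (0.86) and *Patz1* (0.83), and *Spred1*, with the weakest neighbours, like *Ppp4r1l-ps* (0.70), *Mtss1* (0.64) and *Notch1* (0.62). The means of 1 age share libraries, so these are descriptions with no test.

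Among the members themselves few pairs were alike. *Dusp6* and *Etv4* had r = 0.15, *Spry1* and *Spry2* -0.27, *Spry1* and *Il17rd* 0.49, and *Etv4* and *Il17rd* -0.34.

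In HCs named inner or outer, *Dusp6* was 25.8 ± 3.43 CPM in inner and 40.5 ± 16.1 CPM in outer HCs at E16 (SD, n = 3), 14.8 and 26.9 CPM at P1, and 7.90 and 13.5 CPM at P7. At E16, 113 HCs were named inner and 260 outer, and 226 were given neither type. Over all E16 HCs *Dusp6* was 45.8 ± 2.19 CPM (SD, n = 3), above the mean of either type. *Etv4* was at most 2.56 CPM on average in either type. No test was made between the types.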
